A study of Medicago truncatula with 24 samples.

Results

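The response of cra2 shoots to a nitrogen deficit in another part of the plant was described from small RNA sequencing of the legume Medicago truncatula. The comparison took 3 shoot libraries of cra2 plants under local nitrogen deficit against 3 shoot libraries of cra2 plants under local nitrogen satiety, by their labels, among 24 libraries in all. All 427 deposited sequences were kept as members, and 317 of them had counts in these 6 libraries while 110 had none. Because the deficit libraries spread more than those of the other shoot groups, each of them was also described apart.

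The root system of each plant was split between a local and a systemic compartment at 3 weeks of age. In the deficit group the local compartment received 0.05 mM KNO3, and in the satiety group it received 10 mM NH4NO3, for 4 days. In both groups the systemic compartment had no mineral nitrogen, the plants had grown in hydroponics on 0.5 mM KNO3 with 16 h of light, and shoots were taken at 4 weeks of age. Shoots of the wild type A17 under the same deficit and the same satiety, 3 libraries each, served as a second pair of groups. The allele of cra2 and whether replicates were separate plants or pools are not given in the labels, so every p-value speaks of the variation among these libraries alone, and that variation may be technical. In whole shoots, fewer cells of a type and less RNA per cell cannot be told apart.

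Plant microRNAs are short RNAs of about the length of the sequences counted here, cut by DICER-LIKE enzymes from a hairpin whose opposite arm is released with them. Loaded into an ARGONAUTE protein, the mature arm pairs with target transcripts, which are then cleaved or repressed. CRA2 is a receptor kinase that binds CEP peptides, which roots secrete when nitrogen is scarce, and in Medicago its action in the shoot is known to promote miR2111, a mobile microRNA that moves to the root and represses TML, a brake on nodulation. CRA2 messenger RNA is not measured by small RNA sequencing, so the genotype could not be checked from these counts.

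The first set of sequences is that of miR2111, the family with the largest fitted change in cra2 shoots. Capitals mark bases 2 to 8 counted from the 5′ end, which are the seed in a mature microRNA, and U is written as T. Its mature arm and 4 of its opposite-arm sequences were these.
miR2111 mature: tAATCTGCatcctgaggttta
miR2111 opposite arm a: aTCCTTGGaatgcagattatc
miR2111 opposite arm b: aTCCTTAGaatgcagattatc
miR2111 opposite arm c: aGCCTCGGagtgcggattatc
miR2111 opposite arm d: gTCCTCGGgatacagattact

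The second set holds miR396, whose mature variants differ in their last base alone and share 1 seed, with the opposite arms each was set against.
miR396 ending in G: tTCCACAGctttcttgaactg
miR396 ending in T: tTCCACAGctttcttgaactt
miR396 opposite arm a: gCTCAAGAaagctgtgggaga
miR396 opposite arm b: gTTCAATAaagctgtgggaag

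The third set gives some of the members of named families that stood farthest from satiety in a single deficit library, or whose libraries did not overlap between the groups. The miR160 pair and the miR398 pair each share a seed, while the miR171 sequences do not.
miR159: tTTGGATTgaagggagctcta
miR160 a: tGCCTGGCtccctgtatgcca
miR160 b: tGCCTGGCtccctgaatgcca
miR168: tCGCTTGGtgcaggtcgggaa
miR169: tGAGCCAGgatgacttgccgg
miR169 opposite arm: gGCAGGTCatccttcggctata
miR171 a: tTGAGCCGtgccaatatcacg
miR171 b: tGATTGAGccgtgccaatatt
miR172: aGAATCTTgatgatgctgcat
miR390: aAGCTCAGgagggatagcgcc
miR398 a: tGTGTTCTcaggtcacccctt
miR398 b: tGTGTTCTcaggtcgcccctg
miR1507: cCTCGTTCcatacatcatctag
miR1509: tTAATCTAggaaaatacggtg
miR1510: aCATGGTCggtatccctggaa
miR2086 opposite arm: cCAGTTCTgcgttcatgtccc

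The last set holds sequences without a family name that led a deficit library or had a small p, and each is called below by its bases 2 to 8.
TCCAACG sequence: aTCCAACGatgcgggagctgc
AGCTCTA sequence: tAGCTCTAttaacaattaaat
CTAATTA sequence: tCTAATTAttcaccaagtaaa
AATGGAT sequence: tAATGGATtatgtaagattaa
CAAGTAG sequence: aCAAGTAGaaccttttttctg
GCATGGG sequence: gGCATGGGatagtagggaaga
CTGGAAG sequence: gCTGGAAGgttttgtaggaac
TGTCTTA sequence: tTGTCTTAcccattcctccca
AGAGTGC sequence: cAGAGTGCagatacacgcatc

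Families were named by reading each sequence against conserved microRNAs known from textbooks, since the files hold no names. In this way 103 sequences were placed in 31 families, 72 as mature and 31 as opposite arms, and 97 of them had counts in the cra2 shoot libraries, where they held 97.9% of all counts. For 91 of the 103 another member with at most 3 mismatches, or an opposite arm with at least 14 paired bases, was among the sequences, and 12 rested on their own sequence alone. Library totals were 1494211 to 2803062 counts in the deficit group and 2643492 to 3652745 in the satiety group. Across 200 sequences each of the 6 libraries correlated more closely with the mean of A17 shoots (Pearson's r 0.952 to 0.973) than with the mean of A17 roots (0.837 to 0.854). Levels are given as CPM, counts set to a common library total with TMM scaling factors. Of the 427 sequences 189 passed the filter on low counts, holding 99.99% of the counts, 128 had counts but were not tested, and 110 had none.

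No sequence and no family passed the test between cra2 deficit and cra2 satiety shoots. edgeR's quasi-likelihood test called 0 of 189 sequences (0%), with a smallest Benjamini-Hochberg adjusted p of 0.450, and DESeq2 also called 0. At an unadjusted p under 0.05 edgeR had 12 sequences, 9 higher and 3 lower under deficit. With sequences summed by family arm and the rest kept single, 0 of 154 features passed (0%; edgeR smallest adjusted p = 0.550, and DESeq2 called 0), and 8 had an unadjusted p under 0.05. The 3 deficit libraries lay wholly above the 3 satiety libraries for 5 of 189 sequences (2.65%) and wholly below them for 13 (6.88%). Among the 154 summed features the groups did not overlap for 2 higher (1.30%) and 12 lower ones (7.79%). Of the lower ones 6 were family arms, those of miR159, miR168, miR390, miR1509, miR1510 and the opposite arm of miR160. These counts without overlap were made with TMM scaling alone, and their dependence on the scaling was not tested. Some of these arms lay close to satiety, as miR168 did at -0.14 and -0.10 from the satiety mean on the log2 scale in deficit replicates 1 and 3. The median log2 change over all 189 sequences was -0.05 with TMM scaling, 0.08 with RLE scaling and 0.39 with library totals.

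The number of calls changed when deficit replicate 3 was left out. Without that library edgeR called 6 sequences, all higher under deficit, and 1 of them among the summed features, whereas without any other cra2 shoot library it called 0. The 6 were miR2111 (log2 2.66, adjusted p = 0.0489), its opposite arms b (3.05, 0.0375) and d (2.66, 0.0489), miR160 a (1.47, 0.0461), the AGCTCTA sequence (1.39, 0.0130) and the CTAATTA sequence (1.58, 0.0489), each by edgeR's quasi-likelihood test with Benjamini-Hochberg adjustment. The AGCTCTA sequence was the summed feature called. These sequences were lower in deficit replicate 3 than in either of the other deficit libraries. In deficit replicates 1, 2 and 3 miR160 a had 402, 600 and 116 CPM and opposite arm d had 29.6, 4.34 and 0.447 CPM. In the satiety replicates they had 161, 161 and 240 CPM and 1.58, 5.52 and 2.04 CPM. In deficit replicate 2 opposite arm d and the mature arm of miR2111, at 11.4 CPM, lay within the satiety range, so their calls leaned on deficit replicate 1.

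miR2111 was high in a single deficit library. Its mature arm had 129, 11.4 and 4.47 CPM in deficit replicates 1, 2 and 3, against 7.28, 14.6 and 14.9 CPM in the satiety replicates. These levels rest on 431, 29 and 10 counts under deficit and on 23, 37 and 44 counts under satiety. Deficit replicate 1 stood far above all other cra2 shoot libraries, replicate 2 lay within the satiety range and replicate 3 below it. The fitted log2 change was 2.00 ± 0.84 (SE) and did not pass (edgeR adjusted p = 0.550), and it was -0.54 without deficit replicate 1. Over its alternatives the edgeR or DESeq2 adjusted p of the mature arm as a summed feature ran between 0.0623 and 0.898.

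The opposite arm of miR2111 had the same order in its sum, with 145, 35.1 and 14.7 CPM under deficit and 9.81, 43.7 and 16.0 CPM under satiety (log2 1.50 ± 0.69, edgeR adjusted p = 0.550). Each of its 6 sequences had a positive fitted log2 change, between 1.06 and 2.37, and none passed. Opposite arm b was counted 104, 17 and 1 times in deficit replicates 1, 2 and 3 and 3, 13 and 5 times in the satiety replicates. For opposite arm c the counts were 63, 4 and 7 under deficit and 2, 8 and 4 under satiety. Thus replicate 1 carried the high value on both arms of the hairpin. In A17 shoots the mature arm had 199, 175 and 215 CPM under deficit and 90.0, 105 and 98.8 CPM under satiety. Deficit replicate 1 of cra2 lay between these A17 groups, and the other 5 cra2 libraries lay below all 6 A17 libraries. For miR408, which was also higher in A17 shoots at 25.8 to 73.1 CPM, cra2 deficit replicate 1 had 8.38 CPM. On the first principal component of the 12 shoot libraries, which held 39.6% of the variance, this library was at 0.898, the other 5 cra2 libraries at 4.41 to 8.12 and the A17 libraries at -8.89 to -1.76. The cause of this position was not tested.

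**Figure D1:**
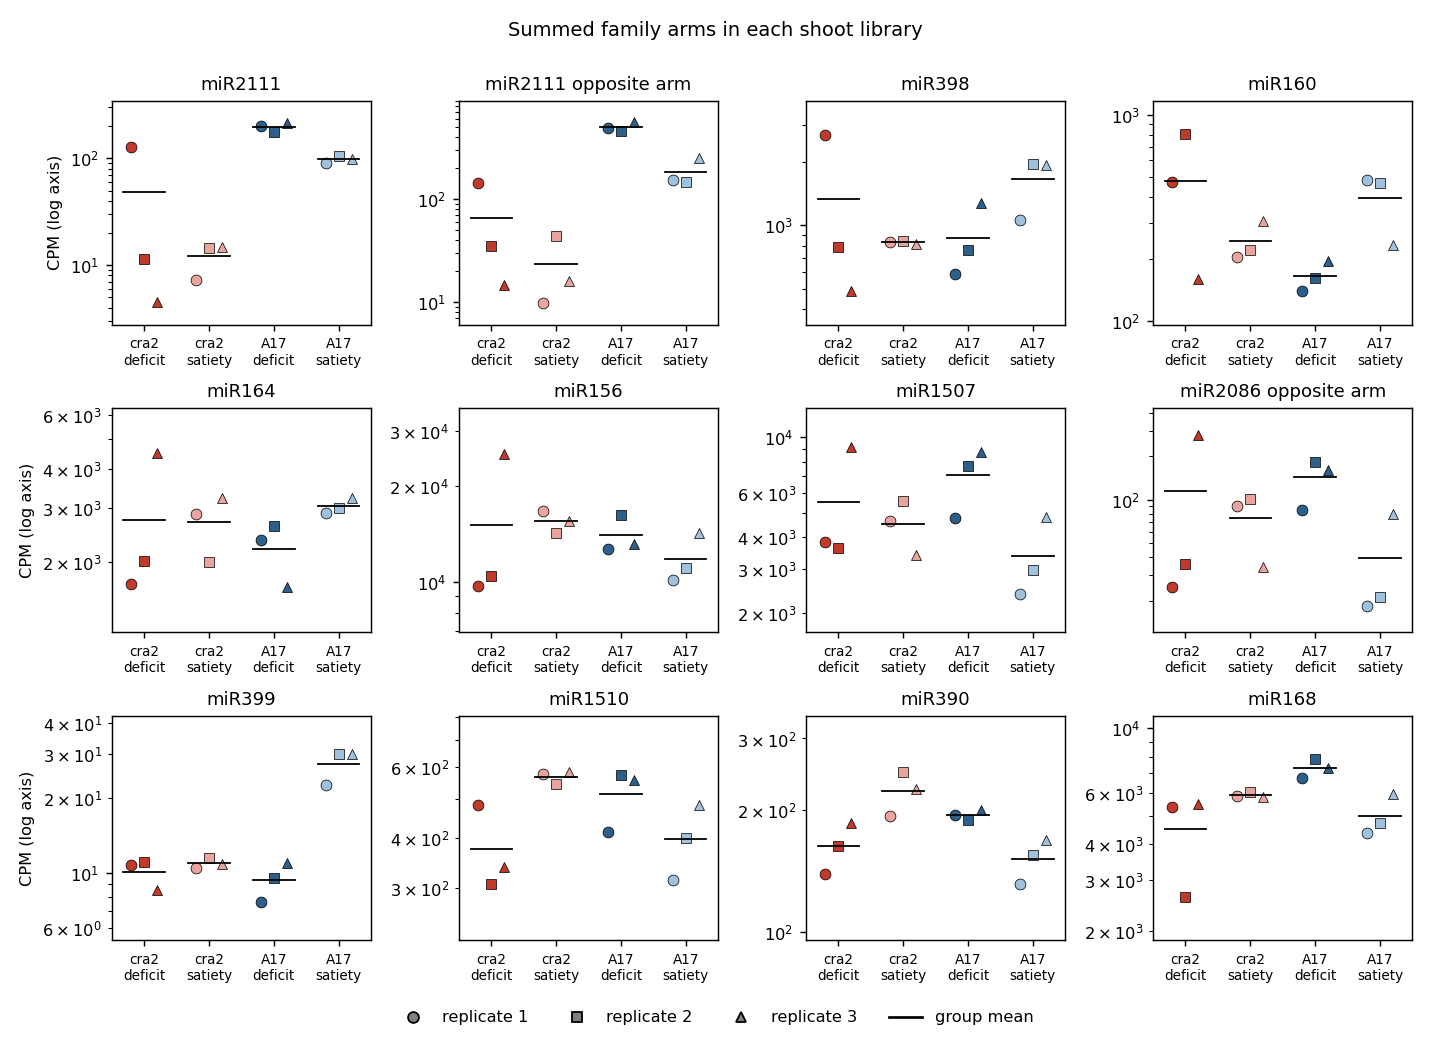
Level of 12 summed family arms in CPM on log axes, for cra2 deficit, cra2 satiety, A17 deficit and A17 satiety shoots. Points are libraries, marker shapes the replicate numbers and lines the group means. Deficit replicate 1 of cra2 had 129 CPM of miR2111 against 4.47 to 14.9 CPM in the other 5 cra2 libraries, while replicate 3 was the highest of the 6 for miR156, miR164 and miR1507.

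Of the copper microRNAs, miR398, which represses copper/zinc superoxide dismutases, followed miR2111 in its spread. Its mature arm had 2703, 791 and 488 CPM in the deficit replicates, against 834, 842 and 811 CPM in the satiety replicates. Replicate 1 was about 3 times as high as any satiety library and replicates 2 and 3 were lower than all of them. The log2 change was 0.68 ± 0.51 (edgeR adjusted p = 0.715), and -0.31 without deficit replicate 1. On the opposite arm of miR398 the values were 1653, 1136 and 710 CPM under deficit and 825, 737 and 1050 CPM under satiety (0.42 ± 0.32, edgeR adjusted p = 0.715). miR408, which represses plantacyanin and laccase transcripts, had 8.38, 2.76 and 8.49 CPM under deficit and 19.3, 6.30 and 6.79 CPM under satiety. Its log2 change of -0.73 ± 0.55 did not pass (edgeR adjusted p = 0.715) and was 0.11 without satiety replicate 1. miR2119 had 287, 123 and 301 CPM under deficit and 230, 204 and 180 CPM under satiety, which overlapped. miR397, a laccase regulator, was counted 1 time in the 6 libraries and the opposite arm of miR408 14 times, and neither was tested. Of 4 mature copper sequences tested 0 passed, with a median log2 change of 0.44.

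Among the auxin microRNAs, miR160, which represses auxin response factors of the repressing kind, had 470, 804 and 160 CPM under deficit and 205, 221 and 307 CPM under satiety. Deficit replicates 1 and 2 were above every satiety library and replicate 3 was below every one. The log2 change was 0.97 ± 0.45 (edgeR adjusted p = 0.550) and 0.49 without deficit replicate 2, the library in which it was highest. The low opposite arm of miR160 did not follow, at 8.98, 7.10 and 7.60 CPM under deficit and 10.1, 9.85 and 12.2 CPM under satiety, without overlap (-0.44 ± 0.36, edgeR adjusted p = 0.715). Accordingly the ratio of mature to opposite arm of miR160 was 52.3, 113 and 21 under deficit and 20.3, 22.4 and 25.1 under satiety.

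miR390, which starts the TAS3 pathway that represses other auxin response factors, had 140, 164 and 185 CPM under deficit and 194, 248 and 226 CPM under satiety. All 3 deficit libraries were lower than all 3 satiety libraries, by a log2 change of -0.45 ± 0.21 that did not pass (edgeR adjusted p = 0.550). miR164, a regulator of NAC transcription factors, had 1697, 2017 and 4501 CPM under deficit and 2863, 2008 and 3219 CPM under satiety. miR167, which acts on activating auxin response factors, had 3176, 3703 and 6408 CPM under deficit and 6161, 5210 and 4722 CPM under satiety. In both families deficit replicate 3 was the highest of the 6 libraries and replicate 1 the lowest. miR393, which targets the auxin receptors, had 20 counts in all and was not tested. Of 6 mature auxin sequences tested 0 passed, with a median log2 change of -0.04.

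The phase change microRNA miR156, which holds back SPL transcription factors in young plants, had 9690, 10469 and 25218 CPM under deficit and 16785, 14289 and 15576 CPM under satiety. Replicates 1 and 2 lay below every satiety library and replicate 3 above every one. Its opposite arm had 1529, 1722 and 4327 CPM under deficit and 2435, 3001 and 2337 CPM under satiety, the same order on the other strand. miR172, which acts later on AP2-like factors, had 2265, 2447 and 2594 CPM under deficit and 2324, 1407 and 2310 CPM under satiety. Its most abundant sequence lay higher in all 3 deficit libraries, at 2190, 2357 and 2468 CPM, than in all 3 satiety libraries, at 2177, 1315 and 2160 CPM. Rarer tested members of miR172 did not share this. In the deficit replicates aGAATCCTgatgatgctgcag deviated from the satiety mean by log2 -0.86, -0.45 and 0.08, and aGAATCTTgatgatgctgca by 0.09, -1.10 and -1.92. The change of the summed mature arm was 0.27 ± 0.25 and did not pass (edgeR adjusted p = 0.727). Of 7 mature and 5 opposite-arm phase change sequences tested 0 passed, with median log2 changes of 0.02 and -0.05.

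**Figure D2:**
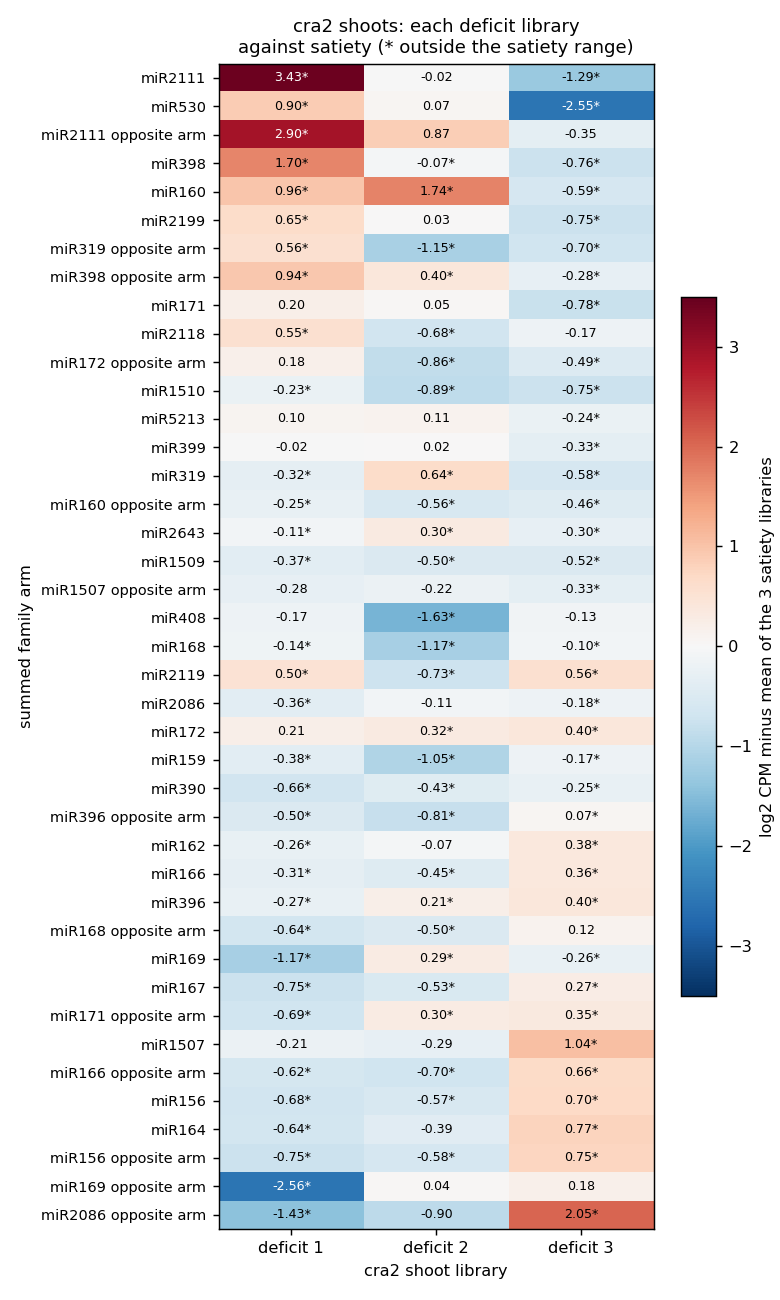
Deviation of each cra2 deficit library from the mean of the 3 cra2 satiety libraries, in log2 CPM, for the 41 family arms tested. Rows are ordered by replicate 1 minus replicate 3, red is above and blue below satiety, and a star marks a value outside the range of the satiety libraries. Of the 41 rows 23 were above the satiety range in some libraries and below it in others, and miR2111 was at 3.43 in replicate 1 and -1.29 in replicate 3, and the opposite arm of miR2086 at -1.43 and 2.05.

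The next list holds microRNAs known to target NB-LRR disease resistance transcripts and to start phased secondary small RNAs, together with miR1509. Its members had values in several directions. miR1510 had 483, 307 and 339 CPM under deficit and 577, 544 and 585 CPM under satiety, lower in each deficit library (log2 -0.59 ± 0.24, edgeR adjusted p = 0.550). miR1509 had 42.2, 38.6 and 38.0 CPM under deficit and 51.9, 60.7 and 52.0 CPM under satiety, again with no overlap (-0.47 ± 0.22, edgeR adjusted p = 0.550). For both, the spread within the deficit group was small beside that of most families. The unnamed sequence tTAATCTAggaaattacactcg has the same seed as miR1509 and was not counted in the family. Its mean over the cra2 shoot libraries was 1132 CPM, against 47.2 CPM for miR1509. It deviated from the satiety mean by log2 0.11, 0.23 and -0.40 in the deficit replicates. The lower level in each deficit library thus holds for the named miR1509 sequence and not for this one. miR1507 had 3850, 3637 and 9165 CPM under deficit and 4638, 5579 and 3413 CPM under satiety, so that replicate 3 stood apart from all others. Its opposite arm had 46.4, 48.5 and 44.7 CPM under deficit and 62.4, 46.1 and 62.5 CPM under satiety (-0.29 ± 0.25, edgeR adjusted p = 0.715). miR2118 had 14206, 6041 and 8597 CPM under deficit and 8016, 12577 and 9055 CPM under satiety, which overlapped. Of 5 mature sequences of this list tested 0 passed, with a median log2 change of -0.30.

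miR159, which represses GAMYB factors, held 81.7, 73.2 and 78.5% of all counts in the deficit replicates and 84.4, 82.9 and 83.3% in the satiety replicates. Its share was lower in each deficit library, and the log2 change in TMM-scaled level was -0.49 ± 0.23 (edgeR adjusted p = 0.550). Scaling by library totals put the sequences of deficit replicate 2 at a median of 0.92 above satiety on the log2 scale, against 0.06 with TMM scaling. With library totals the log2 change of miR159 was -0.10.

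miR396, which restrains growth-regulating factors, had more separation between the groups in the balance of its variants than in its sum. The summed mature arm had 36288, 50627 and 57712 CPM under deficit and 48940, 45595 and 37646 CPM under satiety. The variant ending in G had 14460, 30873 and 20875 CPM under deficit and 12584, 11985 and 12828 CPM under satiety. All 3 deficit libraries were higher than all 3 satiety libraries, at a log2 change of 0.82 ± 0.27 (edgeR adjusted p = 0.537). Summed, the opposite arms of miR396 had 4715, 3819 and 7031 CPM under deficit and 6869, 6535 and 6632 CPM under satiety (-0.36 ± 0.23, edgeR adjusted p = 0.715). Opposite arm a of miR396 lay lower in each deficit library, at 471, 398 and 411 CPM, than in each satiety library, at 603, 773 and 761 CPM. With a log2 change of -0.74 ± 0.20 it had the smallest p of all sequences, 0.00238 unadjusted (edgeR adjusted p = 0.450).

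The variant ending in G made up 39.8, 61.0 and 36.2% of both mature miR396 variants under deficit and 25.7, 26.3 and 34.1% under satiety. Set against opposite arm a, it stood at a ratio of 30.7, 77.5 and 50.8 under deficit and 20.9, 15.5 and 16.9 under satiety. The same ratio to opposite arm b was 3.41, 9.03 and 3.15 under deficit and 2.01, 2.08 and 2.19 under satiety. The variant ending in T showed no such separation, at ratios to opposite arm a of 46.3, 49.6 and 89.7 under deficit and 60.3, 43.5 and 32.6 under satiety. Each mature variant had 17 Watson-Crick pairs with each opposite arm, so the sequences do not show which of them share a hairpin. These shares and ratios were chosen after the values were seen and are given without a test.

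Other development families overlapped. miR166, which shapes leaf polarity through HD-ZIP III factors, had 24535, 22201 and 38946 CPM under deficit and 27522, 30913 and 32934 CPM under satiety. Replicates 1 and 2 were below and replicate 3 above all satiety libraries, and its opposite arm, at 2126, 2008 and 5163 CPM against 3329, 3079 and 3418 CPM, repeated this. miR319, a regulator of TCP factors, was highest in deficit replicate 2, at 5033, 9737 and 4179 CPM under deficit and 6355, 5170 and 7487 CPM under satiety. miR171, which acts on GRAS factors, had 293, 265 and 148 CPM under deficit and 219, 257 and 298 CPM under satiety. Its most abundant member, tGATTGAGtcgtgccaatatc at 138 CPM on average, deviated from the satiety mean by log2 -0.21, 0.06 and -0.72. The members a and b lay on opposite sides of the satiety mean in deficit replicates 2 and 3, and both above it in replicate 1. miR171 a had 13.8, 28.0 and 9.38 CPM under deficit and 3.80, 7.09 and 11.2 CPM under satiety (log2 1.21 ± 0.49, edgeR adjusted p = 0.572), and miR171 b had 53.9, 22.9 and 10.7 CPM against 30.7, 48.5 and 45.5 CPM. Of 15 mature sequences of the development list tested 0 passed, with a median log2 change of 0.07.

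miR168, which limits ARGONAUTE1, had 5341, 2620 and 5501 CPM under deficit and 5841, 6047 and 5803 CPM under satiety. Each deficit library was lower, with replicate 2 far below the others (log2 -0.39 ± 0.26, edgeR adjusted p = 0.715), and the change was -0.03 without that replicate. Its opposite arm had 1393, 1544 and 2359 CPM under deficit and 2606, 2337 and 1695 CPM under satiety (-0.33 ± 0.30, edgeR adjusted p = 0.727). miR162, which limits DICER-LIKE1, had 1675, 1905 and 2608 CPM under deficit and 2037, 2245 and 1760 CPM under satiety, which overlapped. Of 2 mature sequences of this list tested 0 passed, with a median log2 change of -0.18.

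miR399, which protects phosphate uptake by repressing PHO2, was even across the 6 libraries, at 10.8, 11 and 8.49 CPM under deficit and 10.4, 11.4 and 10.9 CPM under satiety. Its log2 change was -0.10 ± 0.25 (edgeR adjusted p = 0.951) and had the opposite sign under several alternatives. Its level in cra2 rested almost wholly on the sequence tGCCAAAGgagatttgccctg, counted 34, 24 and 17 times under deficit and 27, 22 and 30 times under satiety. Of its 9 listed sequences 3 were tested and 0 passed, and their median log2 change of -1.35 came from a sequence with at most 3 counts in a cra2 shoot library. miR395, a sulfate assimilation regulator, had 27 counts in all and was not tested. miR169, which represses NF-YA factors, had 38.6, 107 and 72.8 CPM under deficit and 83.3, 79.6 and 100.2 CPM under satiety, and 1 of its 5 tested mature sequences, which had a median log2 change of 0.14, did not overlap between the groups while 0 passed. That sequence, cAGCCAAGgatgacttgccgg, was higher under deficit, at 6.29, 9.85 and 5.36 CPM, than under satiety, at 4.75, 3.55 and 5.09 CPM. At these low levels the lack of overlap hung on 5.36 CPM in deficit replicate 3 against 5.09 CPM in satiety replicate 3. The opposite arm of miR169 was almost missing from deficit replicate 1, at 2.10, 14.2 and 15.6 CPM under deficit and 12.3, 16.2 and 13.2 CPM under satiety.

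Of the legume families without a role given here, miR5213 had 8160, 8260 and 6469 CPM under deficit and 8774, 7220 and 7023 CPM under satiety, while in A17 shoots it fell by 0.82 on the log2 scale (edgeR adjusted p = 0.0471). The difference of these log2 changes, cra2 minus A17, was 0.81 ± 0.30 and did not pass (edgeR adjusted p = 0.0992). DESeq2 called this difference (adjusted p = 0.0367). miR2199 had 1001, 651 and 381 CPM against 551, 829 and 572 CPM, and miR2643 had 193, 257 and 169 CPM against 200.1, 226 and 198 CPM. These overlapped. Of 4 mature sequences of this list tested 0 passed, with a median log2 change of -0.01. miR2086 had 386, 460 and 437 CPM under deficit and 521, 453 and 518 CPM under satiety (-0.22 ± 0.20, edgeR adjusted p = 0.736). The opposite arm of miR2086 had a wide range, at 24.9, 35.9 and 281 CPM under deficit and 89.6, 101 and 34.0 CPM under satiety. In deficit replicate 3 the mature arm was thus 1.56 times the opposite arm, against 15.5 and 12.8 times in replicates 1 and 2, and 5.82, 4.50 and 15.2 times under satiety. miR530 had 14.4, 7.88 and 0.894 CPM under deficit and 3.48, 9.06 and 13.2 CPM under satiety.

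Taken apart, the 3 deficit libraries left the satiety range in different directions for many sequences. With TMM scaling, in replicate 1, 122 of 189 sequences lay outside the range of the satiety libraries, 46 above and 76 below. In replicate 2 it was 123, with 59 above and 64 below, and in replicate 3 it was 125, with 50 above and 75 below. These splits depended on the scaling: with RLE 56, 64 and 68 sequences were above and 60, 59 and 59 below in replicates 1, 2 and 3, and with library totals 75, 148 and 59 were above and 39, 12 and 69 below. At least 1 deficit library lay outside the range for 176 sequences, but for 79 of these some deficit libraries were above and others below. Of the 41 family arms, 23 were above in some and below in others, 6 were below in all 3 and 0 were above in all 3. The sequences at least 2-fold outside the range were 11 up and 13 down in replicate 1, 27 and 13 in replicate 2, and 8 and 19 in replicate 3. With RLE scaling they were 18 and 12, 28 and 11, and 14 and 18 in that order, and with library totals 23 and 9, 78 and 3, and 12 and 19.

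Among sequences with at least 10 CPM on average over the 6 libraries, deficit replicate 1 stood apart by miR2111 and miR398 above satiety and by members of miR169 below it. Farthest above satiety within this limit were miR2111 (log2 3.43 from the satiety mean), its opposite arm a (2.24), miR398 b (2.05), the CTAATTA sequence (1.87) and miR398 a (1.70). Among the farthest below were the miR169 opposite arm (-2.97), the CTGGAAG sequence (-2.60), the miR169 sequence printed above (-1.77) and the miR2086 opposite arm (-1.43). The CTGGAAG sequence had 24.6, 114 and 204 CPM under deficit and 209, 117 and 140 CPM under satiety.

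Deficit replicate 2, the library with the fewest counts, was marked by miR160 above satiety and by miR159 and miR168 below it. Its 5 highest within the same limit of 10 CPM were the CAAGTAG sequence (2.38), the AATGGAT sequence (2.06), miR171 a (2.00), miR160 b (1.85) and miR160 a (1.70). The AATGGAT sequence had 22.8, 130 and 38.4 CPM under deficit and 37.0, 23.2 and 34.6 CPM under satiety. The CAAGTAG sequence had 5.69, 27.2 and 11.2 CPM under deficit and 3.80, 2.76 and 11.2 CPM under satiety. The average behind the limit included deficit replicate 2 itself. Over the remaining cra2 shoot libraries the CAAGTAG sequence and miR171 a averaged under 10 CPM, so they met the limit only through this library. The 5 lowest within it were the GCATGGG sequence (-2.13), miR168 (-1.17), the unnamed cAACAGGActcaagcatttcgc (-1.10), miR159 (-1.05) and the TCCAACG sequence (-1.04).

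Deficit replicate 3 had the reverse of replicate 1 for several families. Its 5 highest within this limit were the miR2086 opposite arm (2.05), the GCATGGG sequence (1.27), the TGTCTTA sequence (1.16), miR1507 (1.04) and the 23-nt miR156 opposite arm tGCTCACTtctctttctgtcatc (1.0). The TGTCTTA sequence had 4482, 3287 and 9678 CPM under deficit and 4640, 4633 and 3742 CPM under satiety. Its 5 lowest within it were the TCCAACG sequence (-3.89), miR171 b (-1.88), the unnamed cAAGGGGTattgcggaggata (-1.87) and tGGATTTCgtatttctttggta (-1.55), and the CTAATTA sequence (-1.52). The GCATGGG sequence had 14.4, 7.88 and 87.1 CPM under deficit and 44.3, 32.3 and 32.3 CPM under satiety, lowest in replicate 2 and highest in replicate 3.

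The spread within the deficit group was wider than in any other shoot group. The median SD of log2 CPM over 189 sequences was 0.636 in cra2 deficit shoots and 0.312 in cra2 satiety shoots, and 0.292 and 0.299 in A17 deficit and A17 satiety shoots. An SD above 1 was found for 35 sequences in cra2 deficit, 8 in cra2 satiety and 6 in each A17 group. Between deficit libraries the SD of the log2 ratio was 1.01 for replicates 1 and 2, 1.18 for replicates 2 and 3 and 1.33 for replicates 1 and 3. Between deficit and satiety libraries of cra2 it was 0.795 to 1.15 over 9 pairs, and between satiety libraries 0.643 to 0.773. These ranges of deficit pairs and of deficit against satiety overlapped. Deficit pairs had 60 to 70 sequences more than 2-fold apart, deficit and satiety libraries 32 to 48, and satiety pairs 20 to 25. Replicates 1, 2 and 3 of the deficit group had 2803062, 1494211 and 2266336 counts. The part of depth, RNA quality or library preparation in the spread was not tested.

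**Figure D3:**
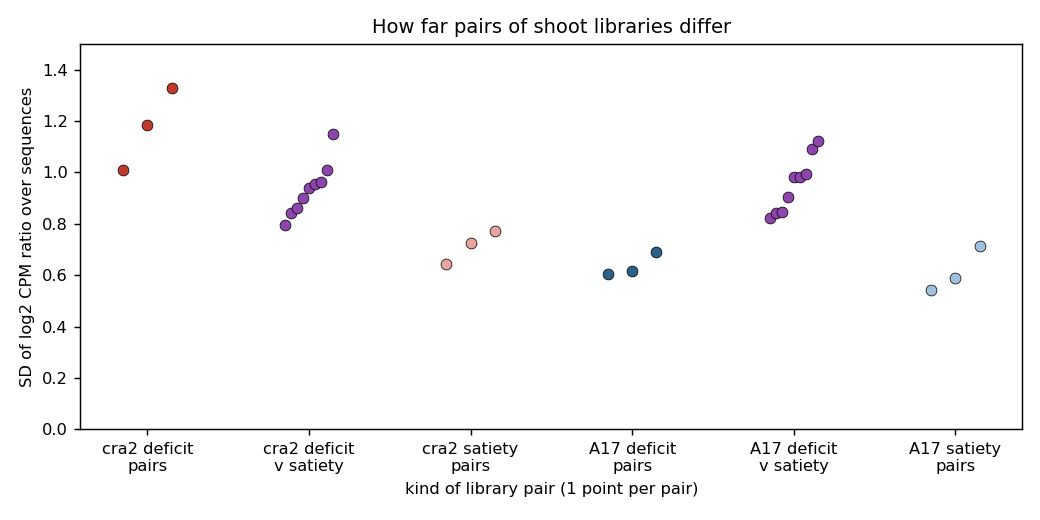
SD over 189 sequences of the log2 CPM ratio for each pair of shoot libraries, by the groups of the pair, with 1 point per pair. Pairs within cra2 deficit lie between 1.01 and 1.33, above the pairs within cra2 satiety (0.643 to 0.773) and within the A17 groups (0.543 to 0.714), and pairs of cra2 deficit against cra2 satiety lie between 0.795 and 1.15.

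Several sequences without a family name had small p. The TCCAACG sequence had 32.9, 38.2 and 4.92 CPM under deficit and 72.5, 71.3 and 96.1 CPM under satiety. All deficit libraries were lower, at a log2 change of -1.65 ± 0.52 (edgeR adjusted p = 0.537). It was counted 110, 97 and 11 times under deficit and 229, 181 and 283 times under satiety. The AGCTCTA sequence had 431, 717 and 165 CPM under deficit and 201, 284 and 199 CPM under satiety (0.94 ± 0.39, edgeR adjusted p = 0.572). The CTAATTA sequence had 192, 101 and 17.9 CPM under deficit and 46.2, 53.6 and 57.7 CPM under satiety, in the order of miR2111. Over the 113 tested sequences without a family name, the median deviation from satiety was -0.12, 0.11 and -0.17 on the log2 scale in deficit replicates 1, 2 and 3. Over the 76 tested members of families it was -0.21, -0.17 and -0.12.

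The make-up of the libraries was compared by 11 measures with exact two-sided permutation tests of 3 against 3 libraries, whose smallest possible p is 0.1. The share of 21-nt sequences was 95.4, 94.5 and 95.6% under deficit and 96.7, 96.2 and 96.5% under satiety (exact p = 0.1, Benjamini-Hochberg adjusted p = 0.44). The share of 22-nt sequences was 3.54, 3.58 and 2.62% under deficit and 2.08, 2.70 and 2.21% under satiety (exact p = 0.2, adjusted p = 0.44). The share of miR159 had an exact p of 0.1 as well, and no measure could pass at this number of libraries. At the smallest library total, 253, 269 and 233 sequences were counted under deficit and 247, 253 and 250.0 under satiety. Next to miR159 the most abundant sequences were both miR396 variants, miR166 and miR2118, with the miR166 sequence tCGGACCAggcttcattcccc at 2.80, 3.44 and 3.72% under deficit and 2.28, 2.85 and 3.13% under satiety.

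Whether the response of cra2 shoots differed from that of A17 shoots was tested as a difference of log2 changes, cra2 minus A17. By edgeR's test 0 of 189 sequences passed (0%, lowest adjusted p = 0.0698), as did 0 of 154 summed features (0%, lowest adjusted p = 0.0579). At an unadjusted p under 0.05 there were 51 sequences, 32 with a positive and 19 with a negative difference, and 44 summed features. DESeq2 called 24 sequences and 22 summed features. Without cra2 deficit replicate 3 edgeR called 46 sequences and 44 summed features, and without cra2 deficit replicate 1 it called 13 and 10. Without A17 satiety replicate 3 it called 1 of each, the AGAGTGC sequence, and without any other shoot library it called 0.

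In A17 shoots miR399 had 7.63, 9.52 and 10.9 CPM under deficit and 22.4, 30.0 and 30.0 CPM under satiety, a log2 change of -1.55 ± 0.25 that passed (edgeR adjusted p = 0.00377). It was among the 6 of 154 summed features that passed in A17 (3.90%). Its difference of response was 1.44 ± 0.35 (edgeR adjusted p = 0.0579), with an adjusted p between 0.0128 and 0.174 over its alternatives by edgeR or DESeq2. All cra2 libraries, at 8.49 to 11.4 CPM, lay below all A17 satiety libraries and overlapped the A17 deficit libraries.

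The opposite arm of miR398 had a log2 change of 0.42 in cra2 and of -1.50 in A17, where it had 764, 719 and 964 CPM under deficit and 1464, 2730 and 2712 CPM under satiety. This A17 change passed (edgeR adjusted p = 0.0363). The difference was 1.92 ± 0.46 (edgeR adjusted p = 0.0579). miR160 had 140, 161 and 195 CPM under deficit and 485, 464 and 235 CPM under satiety in A17, a log2 change of -1.26, and its difference was 2.22 ± 0.64 (edgeR adjusted p = 0.0770). For the miR168 opposite arm the difference was -1.33 ± 0.42 and for miR172 it was 1.07 ± 0.36 (edgeR adjusted p = 0.0935 for both). DESeq2 called these 5 arms, at adjusted p of 0.00987 to 0.0420, and so did edgeR without cra2 deficit replicate 3, at 0.00295 to 0.0419. The AGAGTGC sequence had 18.3, 32.3 and 8.94 CPM under deficit and 8.23, 11.4 and 10.9 CPM under satiety in cra2. In A17 it had 4.45, 3.74 and 3.34 CPM under deficit and 22.4, 20.1 and 7.20 CPM under satiety, and its difference of 3.06 ± 0.68 did not pass (edgeR adjusted p = 0.0698).

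**Figure D4:**
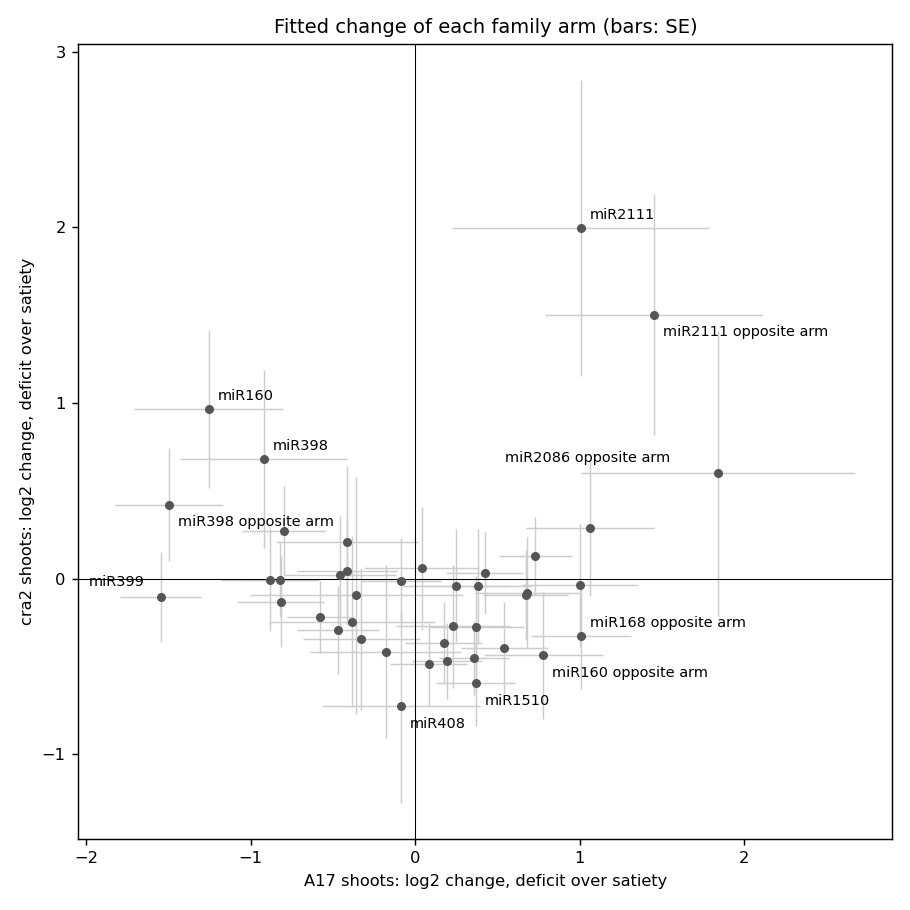
Fitted log2 change, deficit over satiety, of the 41 family arms in cra2 shoots (vertical axis) and A17 shoots (horizontal axis), with the SE of each as bars. Both arms of miR2111 were above 0 in both genotypes, with wide bars, and miR160, miR398 and its opposite arm were above 0 in cra2 and below 0 in A17. The bars rest on a single estimate of spread per feature over the 12 shoot libraries, so the spread of cra2 deficit enters the A17 bars. For both arms of miR2111 all A17 deficit libraries lay above all A17 satiety libraries.

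For miR2111 the difference between genotypes was 0.99 ± 1.13 on the mature arm (edgeR adjusted p = 0.567) and 0.05 ± 0.91 on the opposite arm (edgeR adjusted p = 0.967). These SE also rest on the spread shared by all shoot groups, which for miR2111 was widest in cra2 deficit. Set against the A17 change over all 189 sequences, the deviation of each cra2 deficit library from cra2 satiety correlated at Pearson's r of 0.06 in replicate 1, -0.35 in replicate 2 and 0.14 in replicate 3, with Spearman's rho of -0.14, -0.41 and 0.15. These are descriptions across sequences, which are not independent and share libraries.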

How the data were processed

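Small RNA counts of 12 shoot libraries were used, 6 of them of cra2. As deposited, the values are raw counts of the authors for 427 sequences. Per the labels' protocols, total RNA came from a miRNeasy kit, and size-selected libraries from a NEXTFLEX small RNA kit. The submitters' processing notes name cutadapt, while aligner, counting method and genome build were not given in the sources used here.

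edgeR 4.0.16 (R 4.3.3) was run on the counts with TMM scaling, filterByExpr (minimum count 10), robust quasi-likelihood fits over 12 shoot libraries in 4 groups and Benjamini-Hochberg adjustment over all features, called at 0.05. Family arms were summed and tested together with the unnamed sequences on the same scale. CPM is per TMM-scaled library total, so its sum varies between libraries. log2 CPM used a prior count of 1. DESeq2 1.42.0, other scalings, filters and sets of libraries, a replicate block and each shoot library left out were alternatives. The fits were tested on simulated data, where recovery of changes was required only with the spread between replicates set low. This does not show which changes could be found at the spread of the cra2 deficit group.

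Named items were every feature called between the cra2 groups, the 10 sequences with the smallest p, the listed families whatever their p, the 5 most abundant sequences, and per deficit library the 5 sequences farthest above and below satiety with at least 10 CPM on average, of which 1 sequence is not reported here. A fitted log2 change is given for family arms where it exceeded its SE, and for miR399. The members and lists were chosen with earlier results of these data known. Counts of replicates differed far beyond counting error, at 344 to 476 chi-square units per degree of freedom between deficit libraries and 60.0 to 70.0 between satiety libraries.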

Additional observations from a re-analysis of the deposited data

How the results depend on the processing

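In cra2 shoots the count of called sequences was 0 under each scaling, DESeq2, both other filters, the 6 cra2 libraries alone, all 24 libraries and the replicate block, and 0 to 6 with 1 library left out, while the count of summed features was 0 to 1. Same-numbered deficit and satiety libraries had residual correlations of -0.38, -0.07 and -0.23, and libraries of different numbers had -0.24 to 0.41. Residuals within a group of 3 depend on each other, so these values cannot settle whether the numbers pair the samples. With the replicate block edgeR's smallest adjusted p was 0.731 and 7 sequences had an unadjusted p under 0.05. It changed no call. The count for the difference between genotypes moved most. It was 13 sequences and 13 summed features with library totals, 24 and 22 with DESeq2, 2 and 1 without a filter, and 4 summed features with at least 10 CPM in 3 libraries. With 1 cra2 library left out it was 0 to 46 sequences and 0 to 44 summed features, and with 1 A17 library left out, an alternative chosen after seeing the data, 0 to 1 of each. The cause was not tested.

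Of 514 alternative values for 33 named sequences and family arms, 475 kept direction and side of the threshold, 22 came to pass it and 17 had the opposite sign. miR399 had 0.0159 with RLE scaling, 0.36 with library totals, 0.0205 with DESeq2, 0.0410 with at least 10 CPM in 3 libraries, 0.0133 with the 6 cra2 libraries alone, 0.0656 with all 24 libraries, and -0.0897 to 0.0763 with 1 library left out. With library totals the miR396 opposite arm had 0.0206, the miR1507 opposite arm 0.18, the miR168 opposite arm 0.10 and miR2086 0.26. With 1 library left out miR2111 ranged from -0.54 to 2.67 (its sequence alone to 2.66), its opposite arm gTCCTCGGgatacagattact from -0.19 to 2.78, miR398 from -0.31 to 1.19 and miR408 from -0.91 to 0.11. Without the miR159 sequence the differences in composition, deficit minus satiety, were -0.28 percentage points for 20-nt sequences, -1.05 and 0.79 for sequences starting with G and U and -1.21 for opposite arms, against 0.36, 0.21, -0.67 and 0.23 with it. The number of sequences at the smallest total differed by -7 to 11 with 1 library left out. Depth limits the low arms: 3 counts correspond to 1.07 to 2.01 CPM of the library total under deficit and 0.821 to 1.13 under satiety.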
